A study of Mus musculus and Homo sapiens with 32 samples.

Results

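Transcript levels of 10 genes that mark myofibroblasts, pericytes and interstitial fibroblasts were followed in mouse kidney after unilateral ureteral obstruction (UUO), the ligation of the ureter of 1 kidney that produces renal fibrosis. The genes were chosen by name, as Acta2, Tagln, Myl9, Cnn1, Des, Pdgfra, Pdgfrb, Thy1, Postn and Fap, and each name matched 1 protein-coding row among the 57180 genes of the count table. All 10 passed the filter on low counts, among 19256 genes tested. Bulk RNA sequencing had been carried out on 18 kidneys' libraries in 6 groups of 3. Pcmt1 fl/fl mice, which carry loxP-flanked alleles of the protein repair methyltransferase gene Pcmt1, received sham surgery with DMSO, UUO with DMSO, or UUO with LY2109761, which blocks the kinase activity of TGF-β receptors. Pcmt1 tKO mice received the same 3 treatments. The labels do not spell out tKO, and the promoter behind the deletion, the age and strain of the mice, the time after surgery and the dose are not given in the sources used here. Nothing in the labels ties replicates to separate animals. The spread that p-values here rest on is that between libraries, and it may be technical. The fl/fl group that received LY2109761 carries the replicate numbers 1, 3 and 4, and all other groups 1, 2 and 3.

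Library totals ranged from 13015669 to 19565376 counts. Mitochondrial transcripts took 30.8% to 35.5% of counts in fl/fl sham libraries, 7.43% to 7.67% in fl/fl UUO and 12.2% to 16.4% in fl/fl UUO+LY2109761. In tKO sham they took 33.7%, 49.7% and 69.5% in replicates 1 to 3, and the normalisation factor of that last library was 0.352. In tKO UUO they took 9.88% to 16.2% and in tKO UUO+LY2109761 12.3% to 18.8%. Pcmt1 itself did not pass the test between genotypes in any of the 3 settings (adjusted p = 0.182, 0.0818 and 0.535 by edgeR), and the library labelled tKO sham replicate 1 held 49.3 CPM of Pcmt1, above each fl/fl sham library (42.8 to 48.9 CPM). The library labelled fl/fl UUO+LY2109761 replicate 3 held 25.7 CPM, below replicates 2 and 3 of tKO UUO+LY2109761 (27.9 and 27.6 CPM). Both were kept in the groups of their labels. Where leaving 1 of them out ended a call, the value without it is given. For the Postn and Fap interactions with LY2109761, only the range over all fits that lost the call is given. Kidney tubule markers such as Lrp2 and Umod summed to 7182 to 7809 CPM in fl/fl sham, and to no less than 1686 CPM in any library, which fits the tissue label. CPM here are counts per 1000000 of the TMM-scaled library size, where TMM is edgeR's trimmed-mean scaling factor.

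Myofibroblasts are the contractile, matrix-producing cells of fibrotic tissue. In kidney they are largely thought to arise from resident fibroblasts and pericytes, the mural cells that wrap capillaries, and those cells carry the PDGF receptors α and β. TGF-β and PDGF signalling drive the transition, in which smooth muscle genes are switched on through serum response factor (SRF) and its myocardin-family cofactors at a promoter element called the CArG box. Vascular smooth muscle expresses the same contractile genes in healthy kidney, so these transcripts mark more than 1 cell type. In bulk tissue, fewer cells of a type and less RNA per cell cannot be told apart.

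As the table gives them, all but Pdgfrb, whose place is not printed here, lie at the following loci, whose build is not given in the sources used here for this table and which match the GRCm38 annotation for only 1445 of 51933 shared gene identifiers. The contractile genes are Acta2 on chromosome 19 from 34218490 to 34232990, Tagln on chromosome 9 from 45840917 to 45847356, Myl9 on chromosome 2 from 156617340 to 156623578 and Cnn1 on chromosome 9 from 22010512 to 22020926. Des lies on chromosome 1 from 75336973 to 75345223, Pdgfra on chromosome 5 from 75312953 to 75358876. The others are Thy1 on chromosome 9 from 43954681 to 43959876, Postn on chromosome 3 from 54268530 to 54298458 and Fap on chromosome 2 from 62331287 to 62404419. All values are totals over a whole gene.

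Promoter sequence was taken from RefSeq tables of build GRCm38.p6, which hold 300 bases around each annotated start and matched 6 of the 10 genes (Acta2, Myl9, Cnn1, Des, Pdgfra and Postn). The 180 bases before the start of Acta2 (chr19:34255374-34255553, minus strand) and Myl9 (chr2:156775284-156775463, plus strand) are shown because these genes alone among the 6 carried a CArG box, the element that SRF binds. Capitals mark each CArG box, searched as CC, 6 bases and GG on both strands (the motif reads alike on either), with at most 1 G or C among the 6.
Acta2: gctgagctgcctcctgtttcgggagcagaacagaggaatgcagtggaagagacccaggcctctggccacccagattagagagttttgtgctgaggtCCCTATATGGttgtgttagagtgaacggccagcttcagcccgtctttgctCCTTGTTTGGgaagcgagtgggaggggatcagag
Myl9: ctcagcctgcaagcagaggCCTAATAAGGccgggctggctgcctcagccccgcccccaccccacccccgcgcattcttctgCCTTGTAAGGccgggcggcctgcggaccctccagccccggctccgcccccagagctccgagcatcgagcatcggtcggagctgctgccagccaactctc
Myl9 held a box with only A and T in its centre at −161 and another with 1 G or C at −99, counted to the first base of the box from the annotated start. Acta2 held a pair with 1 G or C, at −84 and −34. Boxes with only A and T occurred in 1.63% of the 32851 RefSeq promoters, and boxes with at most 1 G or C in 9.98%. The windows of Cnn1, Des, Pdgfra and Postn held neither form, which says only that these letters are not in these windows. In the main edgeR fit, with TMM factors and all 18 libraries, neither Acta2 nor Myl9 passed the test in any of the 11 comparisons made below. Acta2 passed in some other fits, such as column totals for UUO against sham in fl/fl.

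Levels were set against each other on a scale per length, the authors' FPKM (fragments per kilobase of transcript, per 1000000 fragments). In fl/fl sham kidneys the contractile genes led, with Acta2 at 21.9 ± 8.87 FPKM, Myl9 at 20.8 ± 7.15 and Tagln at 16.6 ± 5.94 (SD, n = 3), whose spreads overlapped. Pdgfrb (3.51 ± 0.144) and Des (3.45 ± 0.226) followed, then Pdgfra (1.504 ± 0.409) and Cnn1 (0.836 ± 0.369). Thy1, Postn and Fap stood lowest, at 0.360 ± 0.140, 0.118 ± 0.0818 and 0.0994 ± 0.0137 FPKM. After UUO in fl/fl kidneys the order changed. Tagln came first, at 113 ± 26.0 FPKM, Acta2 stood at 69.5 ± 22.8, and Thy1 stood above Des and Pdgfra, at 10.2 ± 0.703 FPKM. Fap remained the lowest of the 10 in all 6 groups. FPKM carry the authors' own scaling between libraries and are used here only to order genes within a group.

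**Figure D1:**
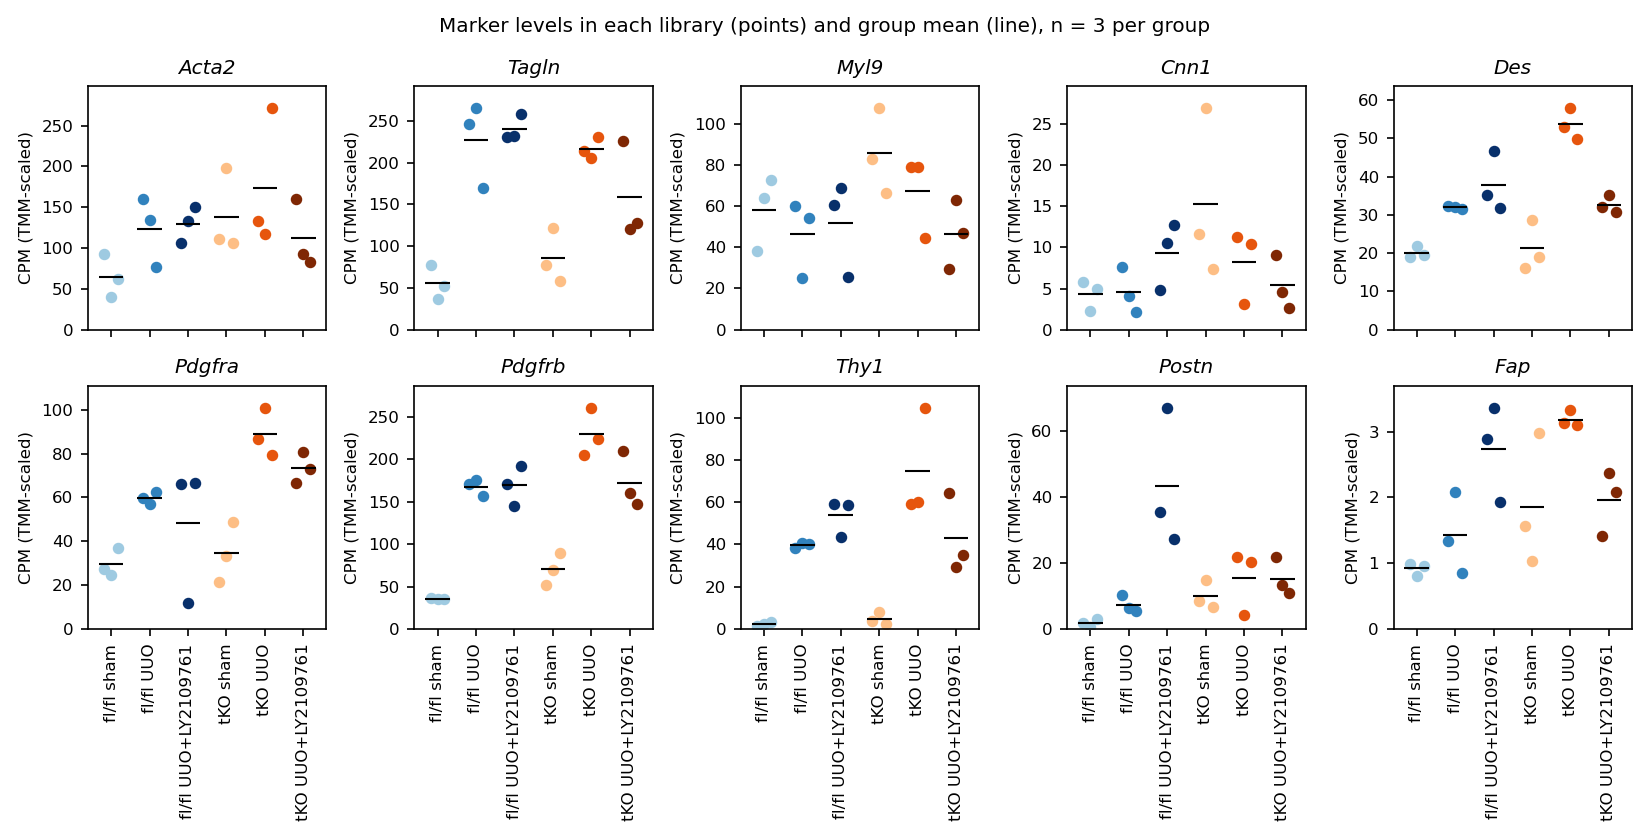
CPM (TMM-scaled, linear axes from 0) of the 10 markers in each of the 18 libraries, as points, with the mean of the 3 libraries of a group as a line. Des, Pdgfrb and Thy1 are lower in all 6 sham libraries than in all 12 obstructed ones, Des by a small margin (28.6 and 30.7 CPM at the nearest). Postn is highest in fl/fl UUO+LY2109761, and Pdgfra has 1 library at 11.8 CPM in that group.

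Obstructed and sham kidneys of fl/fl mice were compared to ask which markers differ after obstruction alone. Of the 10 markers 5 rose, namely Tagln, Des, Pdgfrb, Thy1 and Postn, and none fell, while 20.9% of all genes tested were called higher. The largest rise was in Thy1, 16.9-fold, followed by Pdgfrb and Tagln at 4.65-fold and 4.08-fold. Smooth muscle actin itself and the other contractile genes Myl9 and Cnn1 did not pass. Tests were edgeR's quasi-likelihood test with Benjamini-Hochberg adjustment over all 19256 genes and a threshold of 0.05. The median log2 difference of the markers was 0.97, beside 0.023 for all genes, and 9 of the 10 were positive (all 10 under column totals, where Myl9 turned to 0.40). For 6 markers, all higher, no sham library reached an obstructed one, a pattern seen in 28.8% of all genes. Scaling to column totals in place of TMM moved the median of all genes to 0.76 and called 8 markers, adding Acta2, Pdgfra and Fap. The call split over all genes then moved from 4031 higher and 3594 lower to 8544 and 906.

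Among the contractile genes, Tagln encodes transgelin (SM22α), an actin-binding protein of smooth muscle. Its libraries held 77.1, 37.2 and 52.5 CPM in fl/fl sham and 246, 265 and 169 CPM in fl/fl UUO, so that the lowest obstructed library stood above the highest sham library (log2 2.03, SE 0.31, edgeR adjusted p = 9.38e-05). Des encodes desmin, the muscle intermediate filament that kidney pericytes and mesangial cells also carry. It held 19.0, 21.8 and 19.5 CPM in sham and 32.4, 31.98 and 31.5 CPM in UUO, narrow groups that did not overlap (1.59-fold, log2 0.67, SE 0.18, edgeR adjusted p = 0.00834). Acta2, the gene of α smooth muscle actin and the usual myofibroblast marker, held 92.2, 39.4 and 62.5 CPM in sham and 160.4, 134 and 76.8 CPM in UUO. The groups overlapped, since sham replicate 1 exceeded UUO replicate 3, and the difference missed the threshold (log2 0.94, SE 0.40, edgeR adjusted p = 0.0727). It passed without sham replicate 1 (1.28, adjusted p = 0.035) or UUO replicate 3 (1.19, adjusted p = 0.034), and in DESeq2 (adjusted p = 0.0453). Myl9, the regulatory myosin light chain of smooth muscle, ranged from 37.9 to 72.6 CPM in sham and 25.2 to 60.0 CPM in UUO (log2 −0.32, SE 0.40, edgeR adjusted p = 0.57). Cnn1, the smooth muscle calponin, ranged from 2.22 to 5.75 CPM in sham and 2.09 to 7.60 CPM in UUO (log2 0.10, SE 0.64, edgeR adjusted p = 0.918). Groups overlapped for both genes.

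The PDGF receptors mark fibroblasts and pericytes. Pdgfrb, the receptor for PDGF-B and PDGF-D, held 36.6, 36.0 and 35.3 CPM in fl/fl sham libraries and 171, 175 and 156 CPM in fl/fl UUO libraries, with little spread in either group and no overlap (log2 2.22, SE 0.19, edgeR adjusted p = 4.799e-07). Pdgfra, the receptor found on fibroblasts, held 27.6, 24.8 and 37.0 CPM in sham and 59.6, 57.1 and 62.6 CPM in UUO. Every UUO library stood above every sham library, but the difference missed the threshold in the fit of all 6 groups (log2 1.003, SE 0.43, edgeR adjusted p = 0.0788). A fit on these 2 groups alone called it (adjusted p = 0.00234). Among the ligands, Pdgfb rose (log2 3.05, SE 0.21, edgeR adjusted p = 7.92e-08), as did Pdgfc (log2 1.01, SE 0.23, edgeR adjusted p = 0.0026), so 2 of the 4 PDGF ligand genes were called.

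Of the remaining markers, Thy1 encodes the surface glycoprotein CD90 of fibroblasts, nerve cells and mouse T cells. It held 1.56, 2.29 and 3.15 CPM in fl/fl sham and 38.2, 40.7 and 40.4 CPM in fl/fl UUO, a rise far beyond the spread of either group (log2 4.08, SE 0.42, edgeR adjusted p = 2.67e-06). T cell markers, which include Cd3e, Cd4 and Lck, rose in 7 of 8 cases, and their summed level was 12.1 to 15.5 CPM in sham and 31.01 to 38.5 CPM in UUO. Their part in the Thy1 rise was not tested. Postn encodes periostin, a matricellular protein of injured stroma. It held 1.85, 0.665 and 3.08 CPM in sham and 10.2, 6.44 and 5.46 CPM in UUO, where counts were 9 to 48 and 102 to 238, and the groups did not overlap (log2 1.97, SE 0.62, edgeR adjusted p = 0.0191). This call was lost without sham replicate 1 (1.96, adjusted p = 0.0551), sham replicate 2 (1.58, adjusted p = 0.0803) or UUO replicate 1 (1.66, adjusted p = 0.0718). Fap, a cell-surface serine protease of activated fibroblasts, was scarce, at 0.994, 0.813 and 0.964 CPM in sham and 1.33, 2.08 and 0.857 CPM in UUO, with overlapping groups (log2 0.62, SE 0.38, edgeR adjusted p = 0.218).

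**Figure D2:**
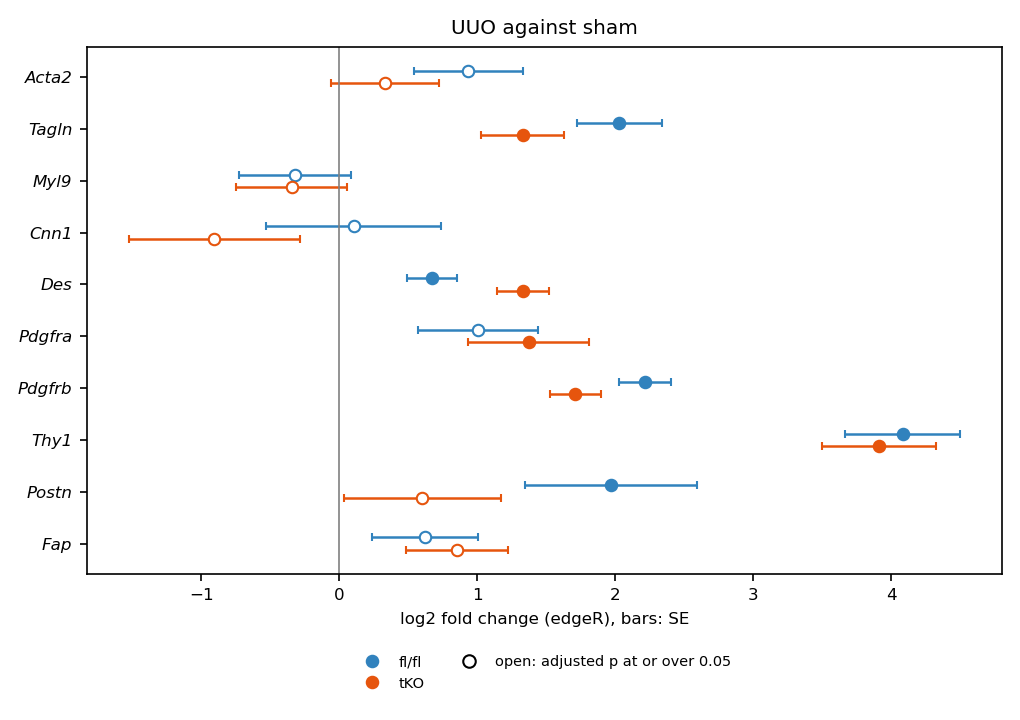
log2 fold change of each marker in UUO against sham kidneys (edgeR, 3 against 3 libraries), for fl/fl in blue and tKO in orange, with bars of 1 SE. Filled points have an adjusted p below 0.05. Thy1 lies near 4 in both genotypes (4.08 and 3.91), and Myl9 lies below 0 in both without passing, and above 0 under column totals.

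Genes of the same pathways did not move as 1 block in fl/fl kidneys. Of 14 other smooth muscle contractile genes 7 rose and 2 fell, with a median of 0.48, beside calls of 20.9% and 18.7% of all genes in each direction. Cnn2 (log2 1.30, SE 0.16, edgeR adjusted p = 1.48e-05) and Tagln2 (log2 1.02, SE 0.17, edgeR adjusted p = 1.79e-04), broadly expressed relatives of Cnn1 and Tagln, had the smallest p. The fallers were Myh11, the smooth muscle myosin heavy chain (−1.92, edgeR adjusted p = 0.00253), and Pln, which encodes phospholamban (−1.17, 0.0286). Myh11 stood at 71.6, 32.4 and 40.3 CPM in sham and 15.6, 11.3 and 11.2 CPM in UUO, without overlap. Of 4 tested SRF and myocardin factors 2 rose, the cofactors Fhl2 (log2 1.42, SE 0.18, edgeR adjusted p = 2.05e-05) and Mrtfb (log2 1.21, SE 0.35, edgeR adjusted p = 0.0128), and Myocd did not pass the filter.

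Of 12 pericyte and mesangial genes 4 rose and 4 fell, with a median of −0.052. Those that rose were Cspg4, the NG2 proteoglycan of pericytes (log2 1.15, SE 0.21, edgeR adjusted p = 3.80e-04), Mcam, which encodes CD146 (log2 1.49, SE 0.29, edgeR adjusted p = 7.70e-04), Notch3 and Heyl. Those that fell were Abcc9, Higd1b, Cox4i2 and Gata3, Gata3 at −0.84 with an edgeR adjusted p of 0.0494. Of 15 fibroblast genes 6 rose and 1 fell, with a median of 0.74, led by the collagen I genes Col1a1 (log2 3.68, SE 0.30, edgeR adjusted p = 3.32e-07) and Col1a2 (log2 2.68, SE 0.23, edgeR adjusted p = 5.38e-07), and the faller was Pi16, a gene of adventitial fibroblasts (−1.38). Of 9 partners of periostin and relatives of FAP 5 rose and none fell, among them Tgfbi, a relative of periostin (log2 3.55, SE 0.23, edgeR adjusted p = 6.50e-08), and Bmp1, a procollagen protease (log2 1.94, SE 0.25, edgeR adjusted p = 2.13e-05). Of 12 TGF-β pathway genes 7 rose and none fell, among them the ligand gene Tgfb1 (log2 2.60, SE 0.22, edgeR adjusted p = 5.71e-07).

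Markers of other cells moved in the same comparison. Macrophage markers rose in 5 of 6 cases, with Cd68 (3.10) and C1qa (3.50) of smallest p, and T cell markers in 7 of 8, with Cd4 (3.64) and Lck (2.45). Kidney tubule markers fell in 5 of 6, with Slc12a3 (−1.27) and Lrp2 (−1.53), and their summed level was 7182 to 7809 CPM in sham and 2385 to 3309 CPM in UUO. Endothelial markers rose in 1 of 5 (Pecam1, 0.56, while Kdr was at −0.42 and not called) and podocyte markers in 1 of 5 (Nphs1, 1.02, while Podxl was at 0.33 and not called). Of 6 urothelial markers, genes used as markers of the lining of the renal pelvis and ureter, 2 rose, namely Krt20, from 0.0710, 0.148 and 0.450 CPM to 101, 88.5 and 47.4 CPM, and Krt5, from 4.68, 2.59 and 4.05 CPM to 33.3, 57.9 and 16.97 CPM. None of the uroplakin genes was called higher. The 6 summed to 85.7 to 211 CPM in UUO, so Krt20 was a large part of that sum. Which cells held the Krt20 transcripts was not tested. Adipose markers fell in 4 of 5, with Cfd (−4.88) and Plin1 (−3.77). Their summed level overlapped all the same, at 56.6 to 240 CPM in sham (median 59.0) and 53.3 to 63.8 CPM in UUO (median 62.2). Of nerve and Schwann cell markers Prph rose (1.72). The list of 5 summed to 9.46 to 12.0 CPM in sham and 5.57 to 7.85 CPM in UUO, lower without overlap. Of 3 skeletal muscle markers tested 2 rose and 1 fell (Mylpf, −1.67), and all 7 summed to 1.84 to 2.81 CPM in sham and 3.59 to 6.66 CPM in UUO, with Tnni2 and Acta1 of smallest p and none of Acta1's libraries above 3.74 CPM. Adrenal markers summed to 2.18 to 3.18 and 1.89 to 2.75 CPM. Of these, Cyp21a1 had 0 counts in each sham library and 4 to 16 in UUO, and Star was not called (−0.67). The part of these cells in the marker values was not tested.

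The same comparison in tKO kidneys again had 5 markers higher and none lower, beside 21.7% of all genes called higher. The 5 were Tagln, Des, Pdgfra, Pdgfrb and Thy1, so Pdgfra stood in the place of Postn. The median of the markers was 1.09, beside 0.017 for all genes, and 6 markers had no overlap between the groups, all higher, as did 26% of all genes. The tKO sham group was wide, and its replicate 2 was the highest of the 3 libraries for 7 of the 10 markers. Under column totals the median of all genes moved to 1.06, and 8 markers and 11678 of the 19256 genes were called higher.

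Tagln held 77.7, 122 and 58.7 CPM in tKO sham and 213, 206 and 231 CPM in tKO UUO, without overlap (log2 1.33, SE 0.30, edgeR adjusted p = 0.00247). Des went from 16.2, 28.6 and 19.1 CPM to 53.1, 57.9 and 49.98 CPM, also without overlap (2.52-fold, log2 1.33, SE 0.19, edgeR adjusted p = 4.22e-05). Acta2 held 111, 198 and 106 CPM in sham and 133, 117 and 271 CPM in UUO. Its groups overlapped, with sham replicate 2 above 2 of the 3 obstructed libraries (log2 0.33, SE 0.39, edgeR adjusted p = 0.535). Cnn1 had a negative difference that did not pass (11.7, 27.0 and 7.37 CPM in sham, 11.2, 3.15 and 10.4 CPM in UUO, log2 −0.91, SE 0.62, edgeR adjusted p = 0.266), and neither did Myl9 (−0.35, edgeR adjusted p = 0.524).

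Pdgfrb held 52.0, 70.0 and 89.4 CPM in tKO sham and 205, 261 and 224 CPM in tKO UUO, with the lowest obstructed library far above the highest sham library (log2 1.71, SE 0.18, edgeR adjusted p = 4.21e-06). Pdgfra held 21.7, 33.3 and 49.0 CPM and 86.4, 101 and 79.6 CPM and passed (log2 1.37, SE 0.44, edgeR adjusted p = 0.0205). That call was lost without tKO sham replicate 1 (1.12, adjusted p = 0.082), tKO sham replicate 2 (1.35, adjusted p = 0.0586) or tKO UUO replicate 2 (1.28, adjusted p = 0.0568). Thy1 rose 15.1-fold, from 3.72, 8.20 and 2.59 CPM to 59.1, 60.3 and 105 CPM (log2 3.91, SE 0.41, edgeR adjusted p = 3.51e-06). T cell markers rose in 7 of 8 cases, and their part was not tested here either. Postn overlapped, at 8.64, 14.9 and 6.57 CPM in sham and 21.8, 4.14 and 20.3 CPM in UUO (log2 0.60, SE 0.57, edgeR adjusted p = 0.427). Fap held 1.56, 1.04 and 2.99 CPM and 3.13, 3.32 and 3.10 CPM, a difference that missed the threshold (log2 0.85, SE 0.37, edgeR adjusted p = 0.0809) and passed without tKO sham replicate 3 (1.27, adjusted p = 0.0158).

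The other lists in tKO gave 4 higher and 2 lower of 14 smooth muscle contractile genes, 5 and 2 of 12 pericyte and mesangial genes and 9 and 1 of 15 fibroblast genes. PDGF ligands gave 2 higher of 4, TGF-β pathway genes 6 higher and 1 lower of 12, SRF and myocardin factors 2 higher of 4, and partners of periostin and relatives of FAP 4 higher of 9. Myh11 fell in tKO as well (−1.96, edgeR adjusted p = 0.00203). The difference between the genotypes in their response to UUO was tested as an interaction. None of the 10 markers passed in edgeR (0.0415% of all genes did), 1 had an unadjusted p under 0.05 (Des, 0.66, edgeR adjusted p = 0.297), and DESeq2 called 0, beside 412 of the 19256 genes. How many of all genes had an unadjusted p under 0.05 was not counted, here or below. Standard errors of this contrast ran from 0.25 to 0.89 on the log2 scale, so a marker found in 1 genotype's calls and not in the other's, such as Postn or Pdgfra, is not shown to differ between them.

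Genotypes were then compared at each treatment. In sham kidneys all 10 markers were higher on average in tKO (8 under column totals, where Des and Pdgfra turned to −0.21 and −0.24), with a median of 0.94 beside 0.029 for all genes, and 2 passed, Pdgfrb and Postn, while 5.76% of all genes were called higher. The groups did not overlap for 5 markers, all higher in tKO, as for 14% of all genes. Pdgfrb held 36.6, 36.0 and 35.3 CPM in fl/fl and 52.0, 70.0 and 89.4 CPM in tKO sham (log2 0.97, SE 0.18, edgeR adjusted p = 0.00775), and Postn held 1.85, 0.665 and 3.08 and 8.64, 14.9 and 6.57 CPM (log2 2.43, SE 0.63, edgeR adjusted p = 0.0245). The tKO libraries of both genes lay above all fl/fl libraries, including the library labelled tKO sham replicate 1. Postn lost its call without fl/fl sham replicate 1 (2.41, adjusted p = 0.0653), fl/fl sham replicate 2 (2.03, adjusted p = 0.0854) or tKO sham replicate 2 (2.03, adjusted p = 0.111). Neither gene passed when only these 2 groups were fitted (adjusted p = 0.0888 and 0.0886) or under column totals, which moved the median of all genes to −0.255. Over all genes the calls then went from 1109 higher to 3 with these 2 groups alone and 70 under column totals. DESeq2 called 5 markers, adding Acta2, Cnn1 and Thy1, and 1665 of the 19256 genes higher. The summed urothelial markers were 42.2, 23.9 and 49.3 CPM in fl/fl sham and 140.2, 219 and 54.9 CPM in tKO sham, and 4 of 6 were called higher in tKO. Tubule markers (7182 to 7809 and 6386 to 7163 CPM) and nerve and Schwann cell markers (9.46 to 12.0 and 15.3 to 24.7 CPM) did not overlap either. The parts of these markers and of the mitochondrial share were not tested.

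Acta2 (1.096, edgeR adjusted p = 0.0785) and Cnn1 (1.85, 0.0701) missed the threshold in sham, although no fl/fl library reached the lowest tKO library for either gene. Fap (0.92, 0.141) was without overlap too. Of the other lists, fibroblast genes gave 3 higher of 15, the collagen genes Col1a1 (1.65), Col1a2 (1.21) and Col3a1. Smooth muscle contractile genes gave 2 higher of 14, Mylk and Actg2.

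In obstructed kidneys, 9 of the 10 markers were higher on average in tKO, with a median of 0.66 beside 0.049 for all genes. Des and Fap passed, beside 8.26% of all genes called higher, and none was lower. The groups did not overlap for 5 markers, all higher in tKO (Des, Pdgfra, Pdgfrb, Thy1 and Fap), as for 21.8% of all genes. Des held 32.4, 31.98 and 31.5 CPM in fl/fl and 53.1, 57.9 and 49.98 CPM in tKO (1.68-fold, log2 0.75, SE 0.18, edgeR adjusted p = 0.0128) without overlap. It missed the threshold without tKO UUO replicate 2 (0.69, adjusted p = 0.0504). Fap held 1.33, 2.08 and 0.857 CPM in fl/fl and 3.13, 3.32 and 3.10 CPM in tKO (2.22-fold, log2 1.15, SE 0.35, edgeR adjusted p = 0.034), from 16 to 43 and 68 to 77 counts.

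The Fap call held without fl/fl UUO replicate 2 and was lost without any other single library of the comparison. It was 1.103, adjusted p = 0.113 without fl/fl UUO replicate 1 and 0.90, adjusted p = 0.123 without replicate 3. Without tKO UUO replicates 1, 2 and 3 in turn the adjusted p was 0.066, 0.0899 and 0.0731 (log2 1.17, 1.12 and 1.17). Neither Des nor Fap passed under column totals, where 363 of the 19256 genes were called higher in place of 1591 (adjusted p = 0.109 and 0.0635), and Fap did not in a fit of these 2 groups alone (0.0544), which called Pdgfra (0.0288) and Thy1 (0.0419). Pdgfrb (0.46, edgeR adjusted p = 0.0862) and Thy1 (0.91, 0.0888) lay just outside the threshold. Tagln overlapped between the genotypes (log2 −0.067, SE 0.30, edgeR adjusted p = 0.901). Fibroblast genes gave 6 higher of 15 in tKO, among them Col1a2 (1.22) and Col3a1 (1.49), and pericyte and mesangial genes 2 of 12, Rgs5 (0.63) and Cox4i2 (1.41). Marker sums of other cells stood apart between these groups as well. From fl/fl to tKO UUO the tubule markers summed to 2385 to 3309 and 1686 to 1947 CPM, the endothelial markers to 225 to 249 and 279 to 396 CPM, and the T cell markers to 31.01 to 38.5 and 40.5 to 44.6 CPM, each without overlap. Adipose (53.3 to 63.8 and 79.2 to 126 CPM) and nerve and Schwann cell markers (5.57 to 7.85 and 10.5 to 12.3 CPM) did not overlap either. The macrophage sums did (818 to 973 and 910.3 to 2293 CPM, medians 839 and 1215). By gene, 6 of 6 macrophage, 3 of 6 tubule and 3 of 5 endothelial markers had an unadjusted p under 0.05 in edgeR. So had 1 of 8 T cell, 1 of 5 adipose and 1 of 4 nerve and Schwann cell markers, a count not made over all genes. The mitochondrial share was 7.43% to 7.67% and 9.88% to 16.2%. The part of these in the marker differences was not tested.

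With LY2109761, 8 markers were lower on average in tKO (median −0.27, beside 0.019 for all genes). None passed in edgeR, where 2.98% of all genes did, 1 had an unadjusted p under 0.05 (Postn, log2 −1.496, SE 0.56, edgeR adjusted p = 0.157), and DESeq2 called 0, beside 1471 of the 19256 genes. Tagln and Postn had no overlap between the groups, both lower in tKO, as 14.2% of all genes were. Among fibroblast genes, Lum, which encodes the collagen-binding proteoglycan lumican, fell (log2 −2.28, SE 0.35, edgeR adjusted p = 0.00853). From fl/fl to tKO the T cell markers summed to 28.2 to 41.4 and 44.05 to 77.7 CPM, without overlap. Macrophage (703.9 to 826 and 933 to 1129 CPM) and adipose markers (97.1 to 206 and 51.9 to 75.0 CPM) did not overlap either. Skeletal muscle markers (5.89 to 7.72 and 3.745 to 4.84 CPM) parted as well. Tubule, endothelial, urothelial, and nerve and Schwann cell markers overlapped. The part of these sums in the marker differences was not tested.

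**Figure D3:**
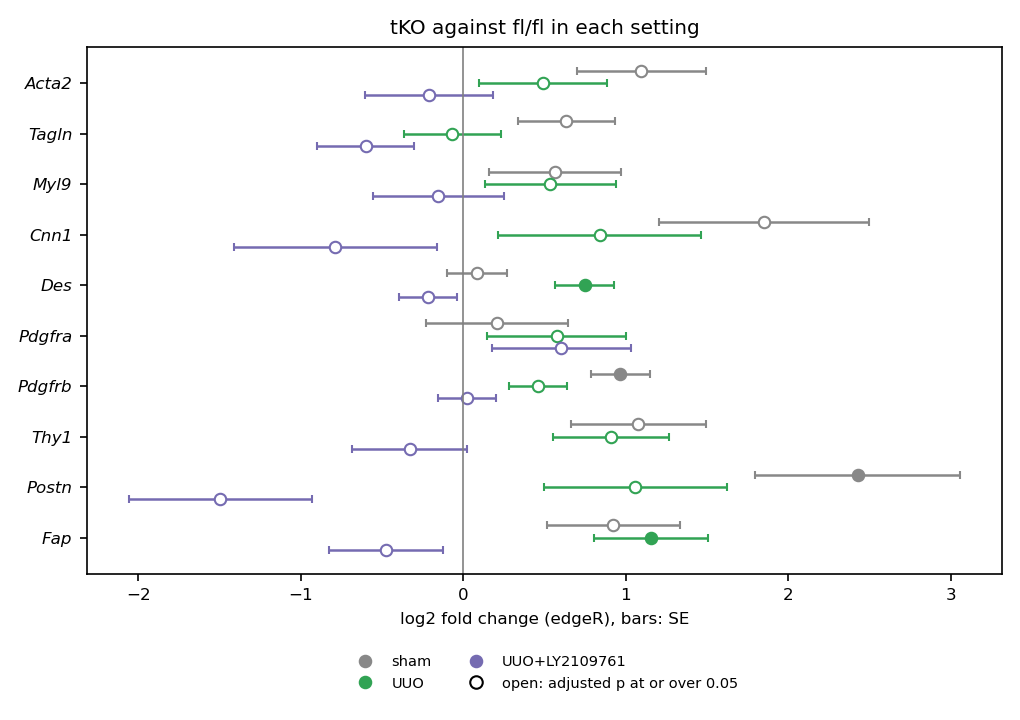
log2 fold change of tKO against fl/fl for each marker in sham (grey), UUO (green) and UUO+LY2109761 (purple), with bars of 1 SE, 3 against 3 libraries each. Filled points have an adjusted p below 0.05. All 10 grey points lie above 0 (8 under column totals), and 8 of the 10 purple points lie below it.

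The effect of the TGF-β receptor kinase inhibitor was asked within obstructed kidneys. In fl/fl kidneys 1 marker passed, Postn, which rose 5.86-fold with LY2109761, beside 2.52% of all genes called higher, and none fell. Postn held 10.2, 6.44 and 5.46 CPM with DMSO and 35.6, 67.1 and 27.2 CPM with LY2109761, where replicate 3 was the highest of all 18 libraries, and the groups did not overlap (log2 2.55, SE 0.59, edgeR adjusted p = 0.0285). The call was lost without fl/fl UUO replicate 1 (2.86, adjusted p = 0.0911), 2 (2.46, adjusted p = 0.0811) or 3 (2.37, adjusted p = 0.0668), or without LY2109761 replicate 1 (2.67, adjusted p = 0.0688) or 3 (2.09, adjusted p = 0.144). It was also lost under column totals (adjusted p = 0.103) and when only these 2 groups were fitted (0.0591). The direction was upward in each of these fits. The calls over all genes moved too, from 486 higher and 505 lower to 11 and 14 under column totals and to 0 and 2 without the library labelled fl/fl UUO+LY2109761 replicate 3. Without fl/fl UUO replicate 1 or 2, or LY2109761 replicate 1, 16, 99 and 64 genes were called higher.

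Summed urothelial markers were higher with LY2109761 in this comparison too, though within both groups the order of replicates differed from that of Postn. Their summed level was 168, 211 and 85.7 CPM with DMSO and 249, 571 and 343 CPM with LY2109761, in the order of replicates given above, and 3 of 6 were called higher, the uroplakin genes Upk2 (log2 2.64, SE 0.59, edgeR adjusted p = 0.026), Upk1b (log2 2.32, SE 0.58, edgeR adjusted p = 0.035) and Upk3a (log2 2.86, SE 0.79, edgeR adjusted p = 0.0497). Upk1b held 12.7, 27.7 and 8.83 CPM and 43.1, 143 and 59.8 CPM, highest in the same library as Postn. Adipose markers (53.3 to 63.8 and 97.1 to 206 CPM), nerve and Schwann cell markers (5.57 to 7.85 and 9.83 to 13.4 CPM) and the mitochondrial share (7.43% to 7.67% and 12.2% to 16.4%) did not overlap between DMSO and LY2109761 either. The part of any of these in the Postn rise was not tested. Fibroblast genes gave 4 higher of 15 (Lum at 2.48, Cthrc1 at 2.22, Dpt at 1.38 and Pi16 at 0.96). The partners of periostin and relatives of FAP, the PDGF ligands, the TGF-β pathway genes and the smooth muscle contractile genes gave no call in edgeR, with 2, 1, 1 and 1 genes at an unadjusted p under 0.05, in that order.

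The other 9 markers did not pass in fl/fl. Tagln held 230.4, 232 and 258 CPM with LY2109761 (log2 0.082, SE 0.30, edgeR adjusted p = 0.906), Acta2 106, 133 and 149.7 CPM (log2 0.067, SE 0.39, edgeR adjusted p = 0.946) and Pdgfrb 171, 145 and 192 CPM (log2 0.019, SE 0.18, edgeR adjusted p = 0.967), each overlapping the DMSO group. Thy1 stood at 59.0, 43.7 and 58.8 CPM, above each DMSO library without passing (log2 0.44, SE 0.35, edgeR adjusted p = 0.502). Thy1 and Postn were the 2 markers without overlap, both higher, as 16.3% of all genes were. Fap held 2.89, 3.36 and 1.94 CPM (log2 0.93, SE 0.36, edgeR adjusted p = 0.132), Des 35.3, 46.8 and 31.7 CPM (log2 0.25, SE 0.18, edgeR adjusted p = 0.453), and Cnn1 4.803, 10.5 and 12.8 CPM (log2 1.02, SE 0.63, edgeR adjusted p = 0.359). Pdgfra held 66.3, 11.8 and 66.8 CPM, so 1 library, replicate 3, lay at less than the lowest sham library while the other two lay near the DMSO libraries (log2 −0.31, SE 0.43, edgeR adjusted p = 0.726). Without that library the difference was 0.15, adjusted p = 0.835.

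In tKO kidneys the 10 markers all had a negative difference with LY2109761 (Postn at −0.0047, whose sign turned in fits without mitochondrial genes, of these 2 groups alone, with the replicate block and without some single libraries), with a median of −0.57 beside −0.0072 for all genes, and none passed in edgeR. In that comparison 0.171% of all genes were called in edgeR. Of the markers 3 had an unadjusted p under 0.05 (Des, Pdgfrb and Thy1), a count not made over all genes. DESeq2 called 1, Des (adjusted p = 0.0101), beside 898 of the 19256 genes. Des held 53.1, 57.9 and 49.98 CPM with DMSO and 31.99, 35.1 and 30.7 CPM with LY2109761, without overlap (log2 −0.72, SE 0.18, edgeR adjusted p = 0.091). Fap was the other marker without overlap, at 3.13, 3.32 and 3.10 and 1.41, 2.37 and 2.09 CPM (log2 −0.70, SE 0.35, edgeR adjusted p = 0.31), and 12.7% of all genes were lower without overlap. Pdgfrb held 209, 159.9 and 147 CPM with LY2109761 (log2 −0.42, SE 0.18, edgeR adjusted p = 0.242) and Thy1 64.4, 29.1 and 35.0 CPM (log2 −0.80, SE 0.36, edgeR adjusted p = 0.259), with replicate 1 inside the DMSO range for both. Tagln held 227, 120.4 and 128 CPM and Acta2 159, 93.2 and 83.0 CPM, where replicate 1 was again the highest. Replicate 1 was the highest of the 3 libraries for 6 of the 10 markers. Postn held 21.8, 13.3 and 10.9 CPM, overlapping the wide DMSO group (log2 −0.0047, SE 0.56, edgeR adjusted p = 0.998). The T cell markers summed to 44.6, 40.5 and 43.2 CPM with DMSO and 58.7, 44.1 and 77.7 CPM with LY2109761. Tubule markers summed to 1686 to 1947 CPM with DMSO and 2279 to 2817 CPM with LY2109761 and adipose markers to 79.2 to 126 and 51.9 to 75.0 CPM, both without overlap. Urothelial markers overlapped, at 224, 83.0 and 103 CPM and 257, 249 and 165 CPM. Their part in the marker differences was not tested.

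**Figure D4:**
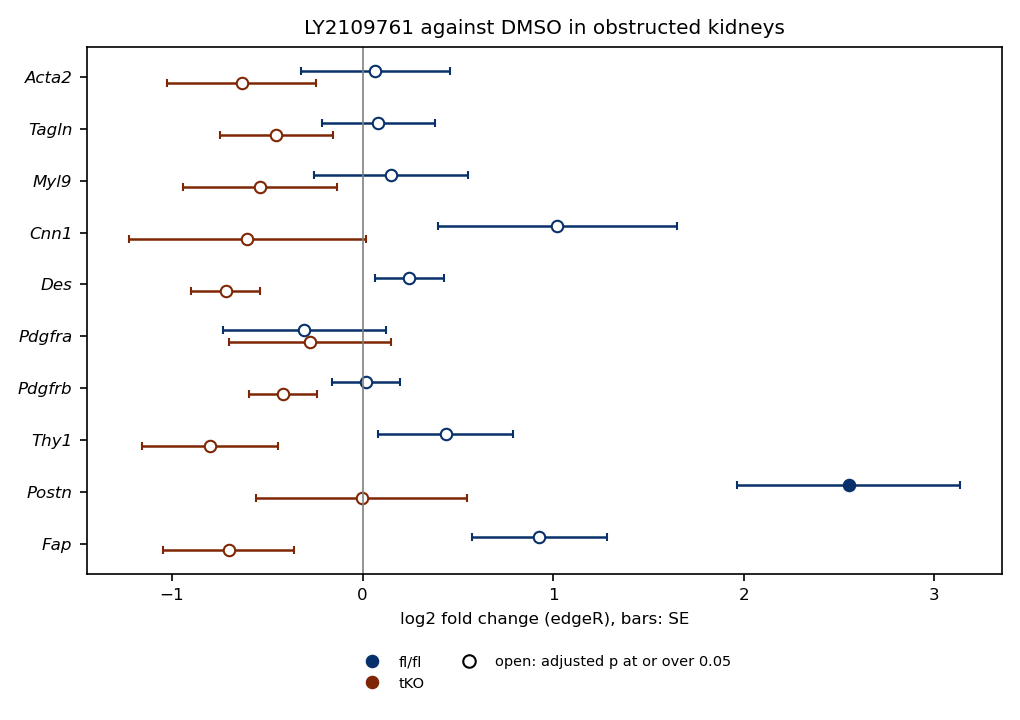
log2 fold change with LY2109761 against DMSO in obstructed kidneys for each marker, fl/fl in dark blue and tKO in brown, with bars of 1 SE, 3 against 3 libraries each. Only Postn in fl/fl, at 2.55, is filled (adjusted p below 0.05), and all tKO points lie below 0, Postn at −0.0047, whose sign turned in other fits.

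The difference between the genotypes in the response to LY2109761 was tested as an interaction, in which a negative value means a lower change in tKO. Of the 10 markers 3 passed, all negative, beside 6.79% of all genes called in that direction, and the median was −0.83 beside −0.044 for all genes. Des stood at log2 −0.96, SE 0.26, edgeR adjusted p = 0.0236, Postn at log2 −2.55, SE 0.80, edgeR adjusted p = 0.0448, and Fap at log2 −1.63, SE 0.50, edgeR adjusted p = 0.0404. The changes behind them were 0.25 in fl/fl and −0.72 in tKO for Des, 2.55 and −0.0047 for Postn, and 0.93 and −0.70 for Fap. Because the fl/fl and tKO groups with DMSO enter both this contrast and the genotype comparison in UUO, the higher Des and Fap of tKO UUO libraries appear in both.

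All 3 interaction calls depended on single libraries, and none of the 3 held under column totals, where 125 of the 19256 genes were called lower in place of 1307 (adjusted p = 0.207, 0.138 and 0.0946 for Des, Postn and Fap). Des lost its call without fl/fl UUO replicate 1 (−0.97, adjusted p = 0.0532), fl/fl UUO+LY2109761 replicate 3 (−0.79, adjusted p = 0.0705), tKO UUO replicate 2 (−0.91, adjusted p = 0.0564) or tKO UUO+LY2109761 replicate 3 (−0.92, adjusted p = 0.0605). Postn kept it in 3 of 12 fits, those without fl/fl UUO+LY2109761 replicate 4, tKO UUO replicate 2 or tKO UUO+LY2109761 replicate 1, and had an adjusted p of 0.0617 to 0.129 without each of the others. Fap kept it in 2 of 12, those without fl/fl UUO replicate 2 or fl/fl UUO+LY2109761 replicate 4, with an adjusted p of 0.0576 to 0.105 without each of the others. The Postn value ran from −3.00 to −2.09 over these fits and that of Fap was −1.38 at the weakest, negative throughout. Thy1 missed the threshold (log2 −1.24, SE 0.50, edgeR adjusted p = 0.113) and passed without tKO UUO+LY2109761 replicate 1 (−1.66, adjusted p = 0.0362). Fibroblast genes gave 6 lower of 15, led by Lum (−3.01) and Dpt (−2.34), and PDGF ligands 1 higher of 4, Pdgfc (1.12).

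Obstructed kidneys with LY2109761 were also set against sham, a comparison that shares its sham libraries with those above. In fl/fl 6 markers were higher, Tagln, Des, Pdgfrb, Thy1, Postn and Fap, beside 22.4% of all genes, and in tKO 4 were, Tagln, Des, Pdgfrb and Thy1, beside 20.8%. None was lower. No overlap with sham was seen for 7 markers in fl/fl, all higher (29.3% of all genes), and in tKO for 4 higher markers (25.4%) and 1 lower, Myl9 (21.7% of all genes, log2 −0.89, SE 0.41, edgeR adjusted p = 0.0966). In fl/fl Thy1 stood 22.9-fold above sham (log2 4.52, SE 0.43, edgeR adjusted p = 1.13e-06). Postn stood 22.9-fold above it (log2 4.52, SE 0.66, edgeR adjusted p = 6.07e-05). Fap stood at log2 1.55, SE 0.38, edgeR adjusted p = 0.00384. Acta2 was close to the threshold (log2 1.002, SE 0.40, edgeR adjusted p = 0.0535) and passed without fl/fl sham replicate 1 (1.35, adjusted p = 0.0264). Pdgfra was not called with all libraries (log2 0.70, SE 0.43, edgeR adjusted p = 0.212) but was called without LY2109761 replicate 3 (1.16, adjusted p = 0.00214).

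In tKO Pdgfrb (log2 1.29, SE 0.18, edgeR adjusted p = 5.77e-05) and Thy1 (log2 3.11, SE 0.40, edgeR adjusted p = 2.76e-05) were higher with LY2109761 than in sham in every fit with a library left out. Tagln (log2 0.88, SE 0.30, edgeR adjusted p = 0.0296) lost its call without tKO sham replicate 1 (0.81, adjusted p = 0.0824), tKO sham replicate 3 (0.67, adjusted p = 0.115) or tKO UUO+LY2109761 replicate 1 (0.53, adjusted p = 0.179), and its groups overlapped. Des (log2 0.61, SE 0.18, edgeR adjusted p = 0.0152) lost it without tKO sham replicate 1 (0.45, adjusted p = 0.066) or 3 (0.55, adjusted p = 0.0511). A fit of these 2 groups alone lost both (adjusted p = 0.0896 and 0.0914). Cnn1 had a negative difference (log2 −1.51, SE 0.63, edgeR adjusted p = 0.0701) that passed without tKO sham replicate 3 (−1.82, adjusted p = 0.0455) or tKO UUO+LY2109761 replicate 1 (−2.10, adjusted p = 0.0357) and in DESeq2 (adjusted p = 0.0334). Pdgfra (log2 1.09, SE 0.44, edgeR adjusted p = 0.058) passed without tKO sham replicate 3 (1.43, adjusted p = 0.0363) and in DESeq2 (adjusted p = 0.0379). Column totals called 7 markers higher here, beside 10927 of the 19256 genes.

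Across the 6 groups the order of the means differed from marker to marker. Des, Pdgfra, Pdgfrb, Thy1, Fap and Acta2 had their highest mean in tKO UUO, Tagln and Postn in fl/fl UUO+LY2109761, and Myl9 and Cnn1 in tKO sham. For Acta2, Tagln, Myl9, Cnn1 and Fap each group overlapped its neighbour in that order. Pdgfrb fell into 3 tiers without overlap, fl/fl sham (36.0 ± 0.646 CPM, SD, n = 3), tKO sham (70.5 ± 18.7 CPM) and the 4 obstructed groups (from 167 ± 9.96 to 230.0 ± 28.0 CPM). Thy1 parted from its sham groups (2.33 ± 0.794 and 4.84 ± 2.96 CPM) to fl/fl UUO (39.8 ± 1.39 CPM), and tKO UUO (74.7 ± 25.9 CPM) stood just above fl/fl UUO+LY2109761 (53.8 ± 8.81 CPM) without overlap. Des in tKO UUO (53.7 ± 4.01 CPM) stood above all other groups, and its sham groups (20.1 ± 1.51 and 21.3 ± 6.49 CPM) stood below the 4 obstructed groups without overlap. For Postn, fl/fl UUO+LY2109761 (43.3 ± 21.0 CPM) stood above all others, and fl/fl sham (1.86 ± 1.21 CPM) below all others.

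For each marker the most alike genes were sought among 11938 other protein-coding genes with a mean of at least 5 CPM. Likeness was the root mean square difference of log2(CPM + 0.5), centred for each gene, over the 18 libraries, each of which gives all genes the same depth and scaling. Pdgfrb was closest to Sparc (0.142), the gene of a collagen-binding matrix protein, and Pxdn (0.172). Des was closest to Nostrin (0.178) and Rin3 (0.212), and Tagln to Tgfb3 (0.208) and Rhbdf2 (0.263). Acta2 was closest to the tropomyosin gene Tpm2 (0.303) and Lmtk3 (0.309), and Cnn1 to Tpm2 (0.576) and Slco4a1 (0.584). Fap was closest to Crip1 (0.304) and Nexn (0.315), Pdgfra to Asap1 (0.378) and Bcl2l11 (0.400), and Myl9 to Prkcq (0.429) and Dguok (0.430). Thy1 was closest to Nkd2 (0.422) and the collagen gene Col1a1 (0.430). Postn was closest to Sprr1a (0.469), an epithelial cornified envelope gene, and the uroplakin gene Upk1b (0.633). Among the markers themselves the closest pair was Tagln and Pdgfrb (0.44), and Myl9, Cnn1 and Postn had the loosest nearest genes.

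**Figure D5:**
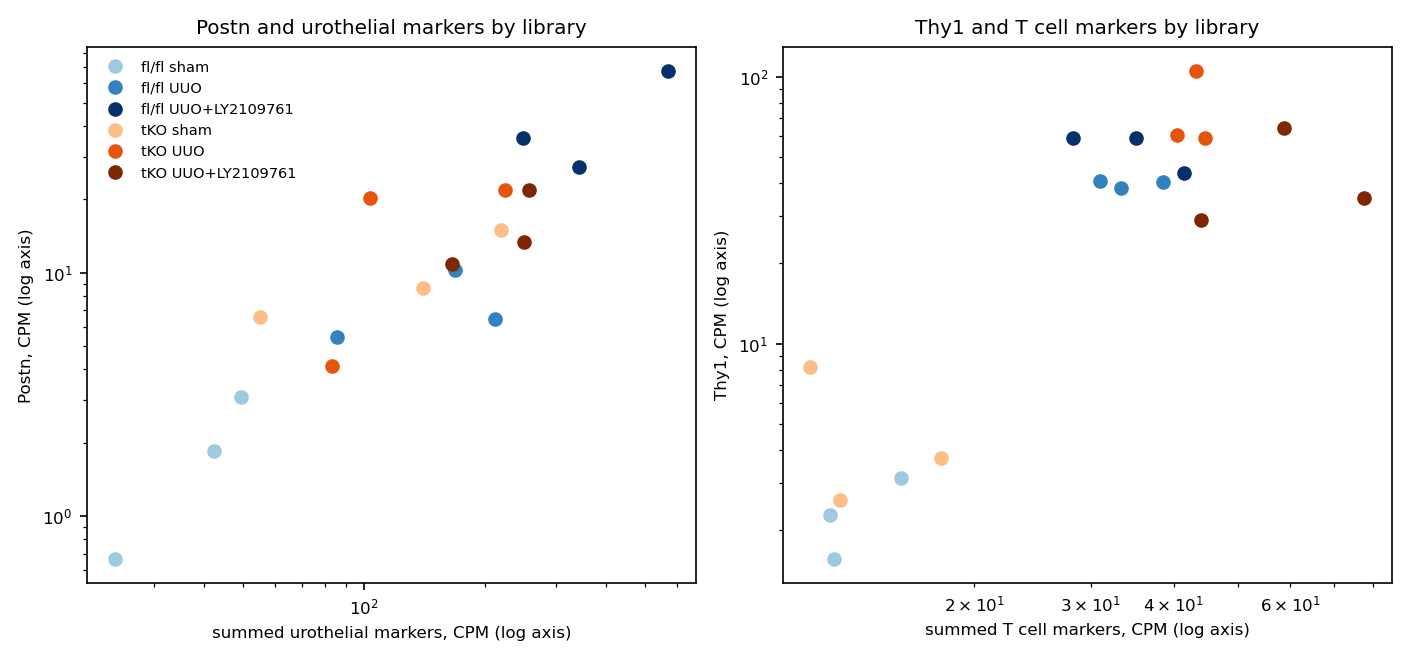
Left, Postn against the summed CPM of 6 urothelial markers, of which Krt20 is a large part in fl/fl UUO. Right, Thy1 against the summed CPM of 8 T cell markers. Each point is 1 of 18 libraries, coloured by group, on log axes. Postn and the urothelial sum are both highest in fl/fl UUO+LY2109761 replicate 3. Their orders differ within fl/fl UUO+LY2109761 below that library, and within fl/fl UUO. In fl/fl UUO the sums 168, 211 and 85.7 CPM stand beside Postn at 10.2, 6.44 and 5.46 CPM. Thy1 is low in all sham libraries.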

How the data were processed

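The 18 kidney libraries were made from total RNA with an mRNA kit, per the labels' protocols. HISAT2, StringTie and fastp are listed, without role or version, per the submitters' processing notes. How reads were counted, and on which build, is not given in the sources used here. Whole-number counts per gene were deposited by the authors, with FPKM values beside them that the authors scaled by gene length and library size. Counts (13015669 to 19565376 per library) were tested with edgeR 4.0.16 (R 4.3.3) by its quasi-likelihood test, with TMM factors, filterByExpr by group, 1 mean per group, all 18 libraries in 1 fit (12 residual degrees of freedom) and Benjamini-Hochberg adjustment over 19256 genes at 0.05; SE is the log2 change divided by the root of F. The test was tested on simulated data with as many rises as falls, in fl/fl UUO alone, and the same dispersion for all genes. Such data cannot tell how the calls depend on scaling. FPKM served only to order genes. Alternatives were DESeq2 1.42.0, column totals, RLE factors, mitochondrial genes left out, no filter, only the groups compared, a replicate block, each library left out, and, for the promoters, the CArG box with and without 1 G or C. Comparisons were fixed by the labels. All 10 markers are named throughout, of each other list the 2 genes with the smallest p in fl/fl UUO against sham, and for likeness the 2 nearest genes; other list genes were named after their values were seen, and some list genes are not reported here. The markers and lists were chosen with earlier results of these data known.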

Additional observations from a re-analysis of the deposited data

Results flagged for a closer look

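The response to LY2109761 in obstructed kidneys differed between tKO and fl/fl by the interaction test for 3 markers. The difference, tKO minus fl/fl on the log2 scale, was −0.96 for Des, −2.55 for Postn and −1.63 for Fap (edgeR adjusted p = 0.0236, 0.0448 and 0.0404). All 3 libraries of tKO UUO lay above all 3 libraries of tKO UUO+LY2109761 for Des and Fap, and all 3 libraries of fl/fl UUO+LY2109761 lay above all of fl/fl UUO for Postn. The first pattern was seen in 12.7% of all genes and the second in 16.3%. In the other genotype the groups overlapped for each of the 3 markers. Leaving out single libraries ended the interaction call in 4 of 12 fits for Des, 9 for Postn and 10 for Fap. None of the 3 calls held under column totals, and 6.79% of all genes were called lower in the main fit. Outside the obstruction experiment, a deposited list from whole kidneys of mice with and without Pcmt1 holds 410 genes, of which Acta2 is the only 1 of the 10 markers. It stood at 80.0, 29.3, 43.7 and 41.6 FPKM in knockout kidneys and 23.5, 25.7, 28.7 and 28.3 FPKM in wild-type kidneys, means of 48.7 ± 21.9 and 26.5 ± 2.45 FPKM (SD, n = 4). Every knockout value exceeded every wild-type value. The list holds only part of the genome by a selection that is not given in the sources used here, so no test was made.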

How the results depend on the processing

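Over all alternatives the called marker differences gave 382 values, of which 316 kept the call, 66 lost it and 0 changed sign. The differences that were not called gave 1168, of which 35 passed and 62 changed sign. The cause of each change was not tested. The number of markers called became 8 for UUO against sham in fl/fl, 8 for UUO against sham in tKO, 0 for tKO against fl/fl in sham, 0 for tKO against fl/fl in UUO, 0 for LY2109761 against DMSO in fl/fl, 7 for UUO+LY2109761 against sham in tKO and 0 for the genotype by LY2109761 interaction under column totals, where the genes called over all genes went from 7625 to 9450, 7898 to 12393, 2375 to 292, 3449 to 680, 991 to 25, 7663 to 11559 and 2664 to 289, in the same order. The number of markers called became 0 for tKO against fl/fl in sham and 0 for LY2109761 against DMSO in fl/fl under only the groups compared, where the genes called over all genes went from 2375 to 6 and 991 to 54, in the same order. The number of markers called became 5 for tKO against fl/fl in sham and 1 for LY2109761 against DMSO in tKO under DESeq2, where the genes called over all genes went from 2375 to 3331 and 33 to 898, in the same order. The number of markers called became 1 for tKO against fl/fl in UUO and 1 for the genotype by LY2109761 interaction under no filter, where the genes called over all genes went from 3449 to 2415 and 2664 to 1624, in the same order. With single libraries left out the markers called ran from 4 to 6 for UUO against sham in fl/fl, 4 to 6 for UUO against sham in tKO, 1 to 2 for tKO against fl/fl in sham, 0 to 2 for tKO against fl/fl in UUO, 0 to 0 for tKO against fl/fl with LY2109761, 0 to 1 for LY2109761 against DMSO in fl/fl, 0 to 0 for LY2109761 against DMSO in tKO, 6 to 7 for UUO+LY2109761 against sham in fl/fl, 2 to 4 for UUO+LY2109761 against sham in tKO, 0 to 0 for the genotype by UUO interaction and 0 to 3 for the genotype by LY2109761 interaction. Over these fits the calls over all genes ran from 6350 to 7280 for UUO against sham in fl/fl and 6534 to 7738 in tKO. For tKO against fl/fl they ran from 485 to 4235 in sham and 1364 to 2803 in UUO. For LY2109761 against DMSO in fl/fl they ran from 2 to 1269, and for the genotype by UUO interaction from 4 to 293. The genotype by LY2109761 interaction gave 1340 without fl/fl UUO+LY2109761 replicate 3 and 2829 without replicate 4. Signs turned under column totals to log2 Myl9 0.40 for UUO against sham in fl/fl, Myl9 0.67 and Cnn1 0.076 for UUO against sham in tKO, Des −0.21 and Pdgfra −0.24 for tKO against fl/fl in sham, Acta2 −0.0023 and Pdgfrb −0.052 for LY2109761 against DMSO in fl/fl, Myl9 0.48 for UUO+LY2109761 against sham in fl/fl, Acta2 0.67 and Myl9 0.040 for UUO+LY2109761 against sham in tKO, Myl9 0.27 and Thy1 0.10 for the genotype by UUO interaction. Signs turned under the replicate block to log2 Acta2 −0.078 and Pdgfrb −0.066 for LY2109761 against DMSO in fl/fl, Postn 0.10 for LY2109761 against DMSO in tKO, Myl9 0.22 for UUO+LY2109761 against sham in fl/fl. Signs turned under TMM without mitochondrial genes to log2 Pdgfrb −0.0092 for LY2109761 against DMSO in fl/fl, Postn 0.021 for LY2109761 against DMSO in tKO. Signs turned under no filter to log2 Pdgfrb −0.016 for LY2109761 against DMSO in fl/fl, Myl9 0.013 for the genotype by UUO interaction. Signs turned under only the groups compared to log2 Pdgfrb −0.0030 for LY2109761 against DMSO in fl/fl, Postn 0.00065 for LY2109761 against DMSO in tKO. With single libraries left out, uncalled differences ran over both signs, Cnn1 −0.47 to 0.45 for UUO against sham in fl/fl, Acta2 −0.14 to 0.69 for UUO against sham in tKO, Des −0.19 to 0.25 and Pdgfra −0.12 to 0.46 for tKO against fl/fl in sham. They also ran Tagln −0.24 to 0.059 for tKO against fl/fl in UUO, Myl9 −0.48 to 0.10 and Pdgfrb −0.14 to 0.13 for tKO against fl/fl with LY2109761, Acta2 −0.19 to 0.30, Tagln −0.092 to 0.21, Myl9 −0.15 to 0.47, Pdgfra −0.61 to 0.15 and Pdgfrb −0.084 to 0.12 for LY2109761 against DMSO in fl/fl. They also ran Postn −0.45 to 0.33 for LY2109761 against DMSO in tKO, Myl9 −0.43 to 0.15 for UUO+LY2109761 against sham in fl/fl, Acta2 −0.64 to 0.051 and Fap −0.14 to 0.57 for UUO+LY2109761 against sham in tKO. They also ran Myl9 −0.32 to 0.21, Thy1 −0.49 to 0.43 and Fap −0.067 to 0.64 for the genotype by UUO interaction, Pdgfra −0.43 to 0.34 for the genotype by LY2109761 interaction. The replicate block put the Postn genotype by LY2109761 interaction at −2.53 (edgeR adjusted p = 0.0789) and changed no other marker's call. Same-numbered libraries did not deviate together (40 pairs, r from −0.142 to 0.185, median −0.0033), so the numbers are not taken to pair them. Promoters with a CArG box numbered 1 of 6 in the strict form and 2 with 1 G or C allowed. Postn and Fap rest on few counts in sham (9 to 48 and 11 to 15 in fl/fl).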

Other observations

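In HK-2 cells, a human line of proximal tubule epithelium, a deposited list of 379 genes holds ACTA2 and CNN1 of the 10 marker names. ACTA2 stood at 0.112, 0.159 and 0.454 FPKM in PCMT1 knockout cells, from 6 to 24 counts, and at 1.12, 1.03 and 0.942 FPKM in wild-type cells, from 55 to 57 counts. CNN1 stood at 0.377, 0.498 and 0.532 FPKM in knockout cells and 1.29, 1.499 and 1.73 FPKM in wild-type cells. For both genes all 3 knockout values lay below all 3 wild-type values, whereas Acta2 in the list from whole knockout kidneys lay above. The lists were selected by the authors, so these are values with no test.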
